A study of Saccharomyces cerevisiae with 36 samples.

Results

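The IL and BW designs in T form are 8 designed 2-chain proteins, each made of a chain A and a chain B, which are taken here from their shared name as intended partners. They are the 4 IL designs (IL8, IL9, IL14 and IL19) and the 4 BW designs (BW3, BW5, BW8 and BW10). Chains were chosen by name alone: IL or BW, a number, and _A or _B, with neither a leading number nor 2H. This gave 16 of the 38 proteins of the T pool and, in the larger Coiled pool, 256 of the 18769 ordered pairs that all its proteins form. The labels call the group mALb (T). The labels do not spell out T, IL or BW.

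Interactions were read by MP3-seq, a yeast 2-hybrid selection in which the barcodes of both fusion proteins were counted by sequencing before (His+) and after (His-) growth without histidine. The chains were assayed in 3 library sets. The Coiled pool was assayed in 2 biological replicates, and the T pool, a smaller pool of 38 proteins that were all present in the Coiled pool too, was assayed with 1 library per condition. Cells in all groups were MATa yeast that carried AGA1 under the GAL1 promoter at a URA3-marked AGA1 locus, the alleles his3-delta, trp1, ura3-52, can1 and leu2-delta200, the protease alleles prbd1.6R and pep4::BleoMX, GAL, and the reporter leu2::pGAL6z-HIS3. All groups were first grown without tryptophan, and only the His- groups then also without histidine and with 3-AT, at 1 mM per the sample descriptions but 3 mM per the growth protocol. Matrices pair a row protein with a column protein, and pairs are written here in that order. The labels do not say which axis was fused to the DNA-binding domain.

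In a 2-hybrid assay one protein is fused to a DNA-binding domain and the other to an activation domain, and a pair that binds switches on the reporter, here HIS3, an enzyme of histidine synthesis that 3-AT inhibits. Designed heterodimers are usually built from helices that pack through a hydrophobic core, and buried polar networks or charged residues are placed so that a chain prefers its own partner. An all-by-all assay tests this preference, because every chain also meets the chains of the other designs and itself.

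Each chain was identified by a 20-base barcode, which was the same in all 3 barcode maps and stood for no other protein name. The barcodes of the chains that recur below are given first, since a pair is only as certain as its 2 barcodes. Capitals mark the bases that BW3_B shares with IL8_B, BW5_A with IL8_A and BW8_B with IL14_B at the same position, because each of these couples had high values with a common partner.
IL19_A: tgtatgctacatgactcggc
IL19_B: tggcggcatacggaaagacg
IL8_A: atgctctcgtctcaaagcga
IL8_B: atacgaaagatccaaagggg
BW3_B: gTcCttgAGtctgcgcGtta
BW5_A: AaatTgTCtcCcgtctaacc
BW5_B: tgatgggcgatcctatctcg
IL14_A: aaggcgcccggtaccttcgg
IL14_B: tcataatccagccgtgcccc
BW8_B: atgTgtagCcGaacaatttt
BW3_B differed from IL8_B, and BW5_A from IL8_A, at 15 of 20 positions, and BW8_B differed from IL14_B at 17. Among all barcodes in the maps, the nearest one to any of the 16 chains differed at 9 or more positions.

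The Coiled pool held 22515090 and 16479810 reads before and after selection in replicate 1 and 14428752 and 17791146 in replicate 2, with technical runs summed. The T pool held 1271971 and 1107694 reads. Change was measured as log2 of a pair's share of the reads, His- over His+, with 1 read added to each count. The median over all pairs of a library set was -2.44 and -2.11 in Coiled replicates 1 and 2 and -2.74 in the T pool. Values near -2 are thus those of the bulk. The 256 member pairs together held 0.78% of the reads before and 1.12% after selection in Coiled replicate 1, 0.83% and 1.16% in replicate 2, and 30.97% and 49.49% in the T pool. Same-chain pairs were scarce before selection, with a median of 85, 24 and 32 reads in the 3 sets against 702.5, 483.5 and 1562.5 for pairs of different chains.

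All 4 IL designs had A with B pairs far above the bulk in the T pool in both orientations. In the Coiled pool each also had a pair well above the bulk in both replicates. Of these, only pairs of IL19 and IL9 passed the edgeR test given below. By the mean of both orientations, IL19 was the highest design in both Coiled replicates, at 5.06 and 5.35. Reads for IL19_A with IL19_B went from 771 to 18615 in Coiled replicate 1, from 474 to 23343 in replicate 2 and from 1816 to 44116 in the T pool. The swapped pair, IL19_B with IL19_A, went from 639 to 15839, from 570 to 29279 and from 1805 to 48441. These are log2 changes of share of 5.04, 5.32 and 4.80 for the first orientation and 5.08, 5.38 and 4.94 for the second. Every His- share lay far above its His+ share, and the orientations differed by at most 0.14 in any set. Over the Coiled replicates, edgeR's quasi-likelihood test gave a log2 change of 7.53 ± 0.64 (SE, n = 2, adjusted p = 0.0344) and 7.58 ± 0.68 (adjusted p = 0.0380). The edgeR values are larger because TMM scaling places the median of all tested pairs at 0.05, where library totals alone place it at -2.29.

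IL9 gave nearly the same picture. IL9_B with IL9_A went from 1207 to 21689, from 701 to 24202 and from 1261 to 33654 reads, with log2 changes of share of 4.62, 4.81 and 4.94, and rose by 7.07 ± 0.62 in edgeR (SE, n = 2, adjusted p = 0.0359). IL9_A with IL9_B had log2 changes of 4.55, 3.51 and 5.09, and its edgeR value of 6.54 ± 0.94 missed the threshold (adjusted p = 0.0812). Both orientations were thus high in all 3 sets, and the spread between the Coiled replicates was wider in the second.

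The orientations of IL8 and IL14 lay further apart. IL8_B with IL8_A went from 1341 to 13810, from 749 to 11299 and from 2539 to 61038 reads, with log2 changes of 3.81, 3.61 and 4.79 (edgeR 6.11 ± 0.78, adjusted p = 0.0599). IL8_A with IL8_B was lower in every set, at 1.75, 1.13 and 3.72 (edgeR 3.84 ± 0.96, adjusted p = 0.162). For IL14, the pair with chain A in the row was the higher one: IL14_A with IL14_B had log2 changes of 5.69, 4.12 and 5.01 (edgeR 7.23 ± 1.13, adjusted p = 0.0936). IL14_B with IL14_A went from 178 to 785 reads in Coiled replicate 1 and from 29 to 35 in replicate 2, but from 632 to 13357 in the T pool, which are log2 changes of 2.58, -0.04 and 4.60. The replicate at -0.04 was also the library set with the fewest reads for this pair before selection. The value with chain A in the row minus that with chain B in the row was -2.06, -2.48 and -1.07 for IL8 and 3.10, 4.16 and 0.41 for IL14, so the gap was smallest in the T pool for both.

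Of the BW designs, only BW5 had A with B pairs above 0 in any of the 3 sets. BW5_B with BW5_A went from 1047 to 16790, from 618 to 9040 and from 1500 to 36067 reads, with log2 changes of 4.45, 3.57 and 4.79 (edgeR 6.51 ± 0.90, adjusted p = 0.0744). BW5_A with BW5_B was again the lower orientation, at 2.44, 3.01 and 4.20 (edgeR 5.06 ± 1.01, adjusted p = 0.13). Neither orientation passed the test, although both were above 0 in all 3 sets.

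The other 3 BW designs stayed with the bulk or below it. BW3_A with BW3_B had log2 changes of share of -3.45, -1.68 and -2.67, and the swapped pair -2.21, -2.96 and -1.83. BW8_B with BW8_A had -3.13, -3.22 and -3.15, with 659, 566 and 1523 reads before selection. BW10_B with BW10_A had -5.64, -3.89 and -2.58, which was 5 reads after selection from 409 before in Coiled replicate 1. BW10_A with BW10_B had -2.05, -2.23 and -2.50. In edgeR, BW10_B with BW10_A had -2.22 ± 0.80 (adjusted p = 0.24), BW8_B with BW8_A -0.86 ± 0.36 (adjusted p = 0.278), BW3_B with BW3_A -0.22 ± 0.40 (adjusted p = 0.753), BW3_A with BW3_B -0.02 ± 0.57 (adjusted p = 0.986) and BW10_A with BW10_B 0.20 ± 0.43 (adjusted p = 0.8), where a value near 0 is that of the bulk. None passed the test, which called 0 of all 15532 tested pairs depleted. BW8_A with BW8_B had 19 and 15 reads before selection in the Coiled replicates and was not tested there. In the T pool, where it had 725, it stood at -2.88 with a 95% interval of -3.23 to -2.57, which covers counting error only.

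By class, A with B pairs of 1 design had a median log2 change of share of 2.51, 2.07 and 4.40 in Coiled replicates 1 and 2 and the T pool. A with B pairs of different designs (crossed pairs) had -2.22, -2.11 and -2.0, pairs of 2 A or 2 B chains -2.15, -1.98 and -2.26, and same-chain pairs -2.21, -1.21 and -2.22. The class of intended partners thus stood above crossed pairs by 4.73, 4.18 and 6.40. The other classes lay nearer to the medians of all pairs (-2.44, -2.11 and -2.74), but same-chain pairs were higher in Coiled replicate 2. The added read lifts same-chain values: BW10_B with itself had 0 reads in every set and stood at 0.45, -0.30 and 0.20. With at least 10 reads before selection, the same-chain median was -2.25 as a mean of the Coiled replicates (from -1.71) and -2.39 in the T pool. The intended pairs divided by family, with medians of 4.58, 3.87 and 4.87 for the 8 IL pairs and -2.25, -2.26 and -2.54 for the 8 BW pairs. No test was run over pairs, since pairs share chains.

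In the Coiled pool, edgeR with Benjamini-Hochberg adjusted p under 0.05 called 4 of 248 tested member pairs enriched, beside 0.972% of all 15532 tested pairs. They were 3 of the 15 tested intended pairs, all IL, and 1 of 110 crossed pairs. At an unadjusted p under 0.05, 48 member pairs were higher (19.4%, beside 10.5% of all pairs). edgeR called 0 member pairs depleted, but also 0 of all 15532 tested pairs. Lower at an unadjusted p under 0.05 were 6 member pairs (2.42%, beside 9.33% of all). DESeq2 called 2 depleted, beside 2.24% of all pairs. Among the 112 pairs of 2 A or 2 B chains edgeR called 0 enriched, with 18 higher at an unadjusted p under 0.05 and 9 by DESeq2. Among 11 same-chain pairs edgeR called 0, with 0 by either other count. DESeq2, which called 12.9% of all pairs enriched, called 34 member pairs (13.7%), of which 10 were intended ones, the 8 of the IL designs and both of BW5. The edgeR calls rest on both His+ libraries. Without either of them the member calls were lost, and without either His- library they grew. Calls over the whole pool moved the same way. Leaving out a library leaves 1 in its condition, so only effect sizes are given for such fits. The log2 change ranged from 7.49 to 7.58 for IL19_A with IL19_B and from 7.32 to 7.82 for IL19_B with IL19_A. It ranged from 6.94 to 7.18 for IL9_B with IL9_A and from 3.72 to 4.27 for IL14_A with BW8_B.

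A count without a test gave the same split by family. In both Coiled replicates 9 of 16 intended pairs were above 0, as were 6.08% of all pairs with at least 10 reads before selection. In all 3 library sets 9 of 16 intended pairs were above 0, 7 of 8 for IL and 2 of 8 for BW, beside 3.32% of all pairs that the pools share. For crossed pairs this was 5 of 110, near that share, and for pairs of 2 A or 2 B chains 0 of 111. In the T pool, where called means a log2 change at least 2 above the median and there is no test, 10 of 16 intended pairs were called, 15 of 112 crossed pairs, 15 of 112 pairs of 2 A or 2 B chains and 3 of 12 same-chain pairs, beside 13.7% of all pairs.

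The intended pairs came to hold most of the reads that member pairs had. Their share of member reads was 6.32% before and 62.4% after selection in Coiled replicate 1 (Wilson 95% interval 62.2 to 62.7), 6.25% and 56.4% in replicate 2 (56.2 to 56.6), and 5.62% and 64.3% in the T pool (64.2 to 64.4). The means over the Coiled replicates were 6.29% ± 0.0495 and 59.4% ± 4.24 (SD, n = 2). The groups did not overlap, but 2 against 2 libraries allow no exact permutation p below 0.333, which was the value found (two-sided). The 4 IL designs alone held 51.4%, 49.7% and 54.6% of member reads after selection, and BW5 10.9%, 6.38% and 9.57%. PCR reads are not independent molecules, so all intervals here cover counting error only.

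As partners of each other, the chains of IL19 ranked first among all proteins of the pool, on both axes and in all 3 sets. Those of IL9 did so with 1 exception, the column chain IL9_B in Coiled replicate 2, for which its partner ranked 2. Counted within the 16 chains, the partner ranked first in all 3 sets for 6 of 8 IL chains as row and 6 of 8 as column. For BW chains this was 1 of 8 as row and 2 of 8 as column, and all of these were BW5 chains. Among all proteins of the Coiled pool some of these partners ranked lower. In replicates 1 and 2 the partner ranked 8 and 11 for the column chain IL8_B and 2 and 7 for BW5_A. For the column chain IL14_B it ranked first in both. Within the 16 chains, the 2 IL exceptions as row were IL14_B and IL8_A. The best partner of IL14_B was BW8_B in both Coiled replicates and IL14_A in the T pool. That of IL8_A was IL8_B in Coiled replicate 1 and BW3_B in Coiled replicate 2 and the T pool.

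That combination, chain A of IL8 with chain B of BW3, was the highest of the crossed combinations that were above 0 in all 3 sets. Reads for BW3_B with IL8_A went from 1208 to 10110, from 780 to 12108 and from 1972 to 27322, and those for IL8_A with BW3_B reached 2363 in Coiled replicate 1 and went from 445 to 8933 in replicate 2 and from 1229 to 19369 in the T pool. The log2 changes of share were 3.51, 3.65 and 3.99 for the first and 1.68, 4.02 and 4.18 for the second. In edgeR they were 5.94 ± 0.75 (SE, n = 2, adjusted p = 0.0591) and 5.36 ± 1.13 (adjusted p = 0.139), so neither passed. In the Coiled replicates BW3_B with IL8_A lay close to the 3.81 and 3.61 of IL8_B with IL8_A, while BW3_B with its own partner BW3_A stayed at bulk level.

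BW3_B was also high with chain A of BW5. BW5_A with BW3_B had log2 changes of share of 0.74, 3.18 and 3.27 (edgeR 4.74 ± 1.32, adjusted p = 0.182). BW3_B with BW5_A, named after its values were seen, had 2.62, 0.11 and 3.45 (edgeR 3.91 ± 1.20, adjusted p = 0.204). Each orientation was above 0 in all 3 sets. Each was much lower in one Coiled replicate than in the other, and not in the same one, but still above the bulk there.

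IL14_A with BW8_B was the crossed pair that passed the test. Its reads went from 251 to 658, from 177 to 596 and from 1333 to 8110, which are log2 changes of share of 1.84, 1.44 and 2.80. In edgeR it rose by 4.02 ± 0.43 (SE, n = 2, adjusted p = 0.0456), relative to the pool and not to its row. IL14_A as row was above the bulk in general, with medians of -0.98, -0.71 and -0.16 over the chains of other designs. The swapped pair, BW8_B with IL14_A, also named after its values were seen, had -0.41, 1.92 and 2.68 (edgeR 3.65 ± 1.13, adjusted p = 0.206). These 3 crossed combinations, in both orientations, held 2.59% of member reads before and 10.2% after selection in Coiled replicate 1, 3.05% and 15% in replicate 2, and 2.4% and 17.7% in the T pool. They were picked for being high, so these shares are a description.

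A pair of chains B, IL14_B with BW8_B, was high in the Coiled pool and not in the T pool. Its reads went from 467 to 4549 and from 340 to 2197 in the Coiled replicates, but from 1896 to 240 in the T pool, for log2 changes of 3.73, 2.39 and -2.78 (T pool interval -2.98 to -2.59). The swapped pair was below 0 in every set, at -0.74, -3.54 and -1.43. In edgeR IL14_B with BW8_B had 5.60 ± 1.18 and did not pass (adjusted p = 0.139).

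Most remaining pairs of different chains stayed low. Of 221 such pairs with at least 10 reads before selection in every set, 185 were above 0 in no set, 26 in 1, 5 in 2 and 5 in all 3. There were 6 pairs above 2 in 1 set and below 0 in the others, which were named after their values were seen. In Coiled replicate 1 these were IL14_A with IL9_B at 3.37, IL9_B with IL14_B at 2.54, BW8_B with BW3_A at 2.48 and BW3_B with IL14_A at 2.38. In Coiled replicate 2 they were IL19_A with BW10_A at 2.32 and IL9_A with BW5_A at 2.18. None was high in the T pool alone.

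Chains also differed in their level over the 14 chains of the other designs. IL14_A as row had medians of -0.98, -0.71 and -0.16 in the 3 sets, the highest of all row chains in each, and was above 0 with 2, 5 and 4 of them. The next row chains by mean over the Coiled replicates were BW8_A (mean median -1.73) and IL9_B (-1.85), which had -2.55 and -2.10 in the T pool. BW8_A as row had between 1 and 61 reads before selection with these chains in Coiled replicate 1, so the added read lifts its values there. As column, BW5_A had medians of -1.30, -1.06 and -1.22, IL14_A -1.18, -1.45 and -1.16, and IL8_A -1.85, -1.21 and -1.60. IL14_A was thus above the bulk on both axes, and its level over unintended partners stood well below its 5.69, 4.12 and 5.01 with IL14_B. As row, BW10_A, BW10_B, BW8_A and IL8_B were above 0 with 0 of 14 chains in each of the 3 sets. Most unintended pairs of different chains were not above 0 either, with 185 of 221 above 0 in no set. Of all Coiled pairs with at least 10 reads before selection, 6.08% were above 0 in both replicates. The share of all pairs was not computed per set, so whether these counts are particular to these chains is not known.

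No same-chain pair passed the test, and the 3 with the highest edgeR values were all BW chains. BW3_B with itself had 1.53 ± 1.27 (adjusted p = 0.482), BW5_A 0.71 ± 0.86 (adjusted p = 0.631) and BW10_A 0.70 ± 0.71 (adjusted p = 0.559). Depth limits this: BW3_B with itself had 90, 8 and 6 reads before selection, so its change is imprecise. BW5_A with itself, at 106, 34 and 259 reads, had log2 changes of -2.29, -0.73 and -0.67. BW10_A with itself had -1.74, -1.47 and -4.38. IL8_A with itself, named after its values were seen, had 75, 23 and 23 reads before selection and log2 changes of -3.80, -2.08 and 1.20 (T pool interval 0.48 to 2.02).

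The Coiled pool also held R forms of 6 of the designs, which have 2H in their names and are written here without the leading number. A T chain met the other chain of its parent in R form in 64 ordered pairs, of which 60 were tested and 2 were enriched, beside the 0.972% of all pairs. They were BW5_B with BW5_2H_A (log2 changes of share 4.19 and 4.73, edgeR 6.80 ± 0.60, adjusted p = 0.0359) and BW3_2H_A with BW3_B (3.68 and 4.22, edgeR 6.29 ± 0.73, adjusted p = 0.0498). The second is of a design whose T chains stayed low with each other. BW3_B with BW3_2H_A, its swapped pair, was at 2.58 and 2.39, and both pairs of BW3_A with BW3_2H_B lay between -3.84 and -2.25.

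Above 0 in both replicates were 19 of the 60 tested, beside 6.08% of all pairs of the pool that had 10 or more His+ reads. They were 8 of 16 for BW5, 5 of 15 for IL9, 4 of 12 for IL14, 2 of 4 for BW3, 0 of 5 for BW8 and 0 of 8 for IL8. In 4 of the 5 IL9 pairs chain B was the one in T form. IL9_B with IL9_2H_A had log2 changes of 3.32 and 3.28 (edgeR 5.66 ± 0.73, adjusted p = 0.0634), whereas IL9_A with IL9_2H_B had -0.33 and -1.99. IL8 was the contrast: its T chains were high with each other, and no pair of a T chain with an R chain of IL8 exceeded -0.43 in either replicate. DESeq2 called 23 of the 60 enriched, beside 12.9% of all pairs.

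BW3_B with chain A of BW5 could be followed into the R forms. Of 8 ordered pairs of BW3_B with BW5 A chains in R form, 3 were enriched, beside 0.972% of all tested pairs. These pairs were looked up because BW3_B was known to be high with BW5_A, so the count is a description. BW3_B with BW5_2H_A went from 1694 to 24604 and from 988 to 28885 reads (edgeR 6.79 ± 0.57, adjusted p = 0.0344), and BW5_2H_A with BW3_B from 2072 to 18529 and from 1287 to 44095 (6.61 ± 0.63, adjusted p = 0.0411). BW5_2Hx2_A with BW3_B was the third (6.51 ± 0.53, adjusted p = 0.0339). With the 2Hx1 form of the same chain, both orientations stayed between -1.54 and -0.57. With BW3_B in the row, BW5_2Hx2_A had log2 changes of share of 5.23 and 1.64 (edgeR adjusted p = 0.158) and BW5_2Hx12j_A -1.40 and 1.29. With BW3_B in the column, BW5_2Hx12j_A had -2.34 and -1.61. With BW5_B in the row, the values were 4.19 and 4.73 for BW5_2H_A, 5.39 and 3.91 for BW5_2Hx2_A, -1.55 and -1.69 for BW5_2Hx1_A and -1.91 and -0.83 for BW5_2Hx12j_A. The difference between BW3_B and BW5_B was not tested.

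Outside the 16 chains, 14 of 3377 tested pairs of a member with another protein were enriched, beside 0.972% of all pairs. BW3_B had 5 of them, BW5_A 3, IL8_B 2, and BW10_A, BW5_B, BW8_B and IL14_A 1 each. Those of BW3_B, except mALb8_B with BW3_B, and that of BW5_B are pairs with R forms already named above. The largest change was of mALb8_B with BW3_B, chains B of different designs, which went from 876 to 36283 and from 465 to 20828 reads (edgeR 7.98 ± 0.80, adjusted p = 0.0445). Its log2 changes of share there were 5.82 and 5.18, but those of its swapped pair only 1.59 and 1.39. In the T pool it went from 1000 to 20408 reads, a log2 change of 4.55, and its swapped pair had 3.72. BW3_B was thus high with a partner of another design in both pools here too.

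The coiled-coil peptides Jerala_P10 and Jerala_P11 were enriched with BW5_A in the column (edgeR 7.79 ± 0.47, adjusted p = 0.0339, and 7.15 ± 0.72, adjusted p = 0.0445). In the T pool the same pairs had log2 changes of 4.38 and 4.19. With the axes swapped the T pool values were -3.76 and -2.83, and those of the Coiled replicates -2.71 and -0.12 for Jerala_P10 and -0.84 and 1.37 for Jerala_P11. The remaining 2 of the 5 largest were IL14_A with IL14_2Hx1_A, a pair of chains A of 1 parent design (7.59 ± 0.54, adjusted p = 0.0339), and IL8_B with mALb8x12j_rprtc_B (7.15 ± 0.56, adjusted p = 0.0339). IL14_A with IL14_2Hx1_A was high in both orientations, at 5.33 and 5.17 and, swapped, 4.60 and 3.66.

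In the T pool, 79 of 704 pairs of a member with another protein were called, beside 13.7% of all pairs. IL14_A had 20 of its 44, BW3_B 12 and BW5_A 9, and BW8_B had 0. The calls of IL14_A were low ones, since its highest value was 0.51, with the Bcl-2 family protein MCL1 in the row, against 4.55 for BW3_B and 4.38 for BW5_A.

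Across the 237 pairs of different chains with at least 10 reads before selection in all sets, values correlated with a Pearson r of 0.69 between the Coiled replicates, 0.75 between Coiled replicate 1 and the T pool and 0.71 between Coiled replicate 2 and the T pool. Without the intended pairs (n = 221) these were 0.47, 0.53 and 0.50. By rank (Spearman's rho) the values were lower, at 0.47, 0.52 and 0.45, and 0.40, 0.45 and 0.37 without the intended pairs. The 2 orientations of a pair correlated with a Pearson r of 0.59 and 0.52 in the Coiled replicates and 0.83 in the T pool (n = 117). Without the intended pairs these were 0.32, 0.27 and 0.64 (n = 109). Here too Spearman's rho was lower, at 0.33, 0.23 and 0.42, and 0.25, 0.13 and 0.33 without the intended pairs. These are descriptions, since pairs share chains and, within a set, libraries.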

How the data were processed

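The deposited matrices hold the authors' read counts per ordered pair of proteins, and per the submitters' processing notes the authors compared them with DESeq2. Its version, the read alignment and the barcode matching were not given in the sources used here. Technical runs (2 per library) were summed. Counts of the whole Coiled pool were fitted with edgeR 4.0.16 (glmQLFit, robust, glmQLFTest, TMM factors, limma 3.58.1, R 4.3.3) on the 15532 pairs with at least 10 reads per library on average, and p-values were adjusted over all of them. SE is the absolute log2 change over the square root of F. Common dispersion was 0.371. The T pool has 1 library per condition and no test.

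Tested on simulated data of the Coiled pool, the fit recovered 46.5% of 200 pairs changed by a log2 of 4 and 100.0% of those changed by 8. False calls numbered 2 and 10. The simulation gave every pair the common dispersion and changed only pairs with at least 10 expected reads per library. It therefore cannot give the power for pairs whose replicates differ more, such as IL14_A with IL14_B, which at 7.23 did not pass. Per the labels, libraries of 1 number belong to 1 library set and are therefore paired (correlation of deviations 0.231). The fit left the pairing out.

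Named are all A with B pairs of 1 design, the 3 highest same-chain pairs, other member pairs past the threshold or among the 5 with the highest lower replicate, the 3 highest chains per axis and the 5 outside pairs of largest change. R forms, swapped pairs and pairs high in 1 set were added with values known. The members and lists were chosen with earlier results of these data known. Other settings tried were library sizes without TMM factors, DESeq2 1.42.0, other filters and pseudocounts, the first technical run alone, a replicate block, and leaving out each library. The DHD pools hold none of the 16 chains. Other IL and BW names of the barcode maps were not analysed here. Computed with Python 3.11.15, numpy 2.4.6, pandas 2.3.3 and scipy 1.17.1.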

Additional observations from a re-analysis of the deposited data

Results flagged for a closer look

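Of the 246 member pairs with at least 10 reads before selection in every set, 9 differed in sign between the pools. In these, both Coiled replicates lay on one side of 0 and the T pool on the other, and in each the difference was not tested. The share of such pairs among all pairs that the pools share was not computed. Whether the count is particular to these chains is therefore not known. The value given is the mean log2 change of share of the Coiled replicates minus that of the T pool. Higher in the Coiled pool were IL14_B with BW8_B, by 5.84, and BW3_B with IL8_B, by 3.68 (1.36 and 0.56 against -2.72). Higher in the T pool were BW3_A with IL9_A (-3.02), IL19_B with BW5_B (-2.88), BW3_B with IL14_B (-2.87), IL14_A with BW5_B (-2.45), BW3_A with IL14_A (-2.07) and BW5_B with BW3_B (-1.48). In these 6 the T pool value was between 0.02 and 0.88. The same-chain pair IL8_A with IL8_A was also higher in the T pool (-4.14), where 23 reads before selection became 47.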

How the results depend on the processing

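With replicate as a block, the pairing changed neither count: 4 member pairs and 3 intended pairs were enriched, as without it, and the same holds with no filter, a filter at 50 reads and the first technical run alone. Member and intended pairs enriched numbered 34 and 10 with DESeq2 and 11 and 8 with library size without TMM, and ranged from 0 to 63 and from 0 to 10 when a library was left out. The cause was not tested. DESeq2 called 387 of 3377 outside pairs (11.5%), against 12.9% of all pairs. Library size without TMM shifts all pairs (median from 0.05 to -2.29), which by construction takes BW10_A with BW10_B to -2.16 and the same-chain pairs of BW3_B, BW5_A and BW10_A to -0.85, -1.61 and -1.62. BW3_A with BW3_B turned to 0.00 with DESeq2, and leaving out a library moved it from -1.02 to 0.57 and BW3_B with BW3_A from -0.57 to 0.05. Leaving out a library also gave -3.62 to -1.54 for BW10_B with BW10_A (lowest without the His- library of replicate 2). It gave 0.86 to 6.13 for IL14_B with IL14_A (lowest without the His- library of replicate 1). For BW5_A with BW3_B it gave 3.12 to 5.49 (lowest without the His- library of replicate 2). With themselves, BW3_B had 0.73 to 3.57 and BW5_A 0.29 to 1.31 (lowest without the His+ library of replicate 2, highest without that of replicate 1). Mean Coiled medians moved with member totals to 1.79 (intended pairs, from 2.29), -2.67 (crossed), -2.56 (2 A or 2 B chains) and -2.76 (BW intended, from -2.26). With at least 50 reads the intended median was 2.92 and that of BW -2.22. A pseudocount of 5 gave -2.08 for crossed and -1.99 for BW pairs, a pseudocount of 0.5 gave -2.35 for BW, and the first run alone -2.23. Chosen after seeing the data, leaving out Coiled replicate 1 gave 8 in place of 5 unintended pairs of different chains above 0 in the remaining sets, and leaving out Coiled replicate 2 or the T pool, or a threshold 2 above the median, stayed within 1.5 times. In data simulated with the common dispersion for every pair, the fit recovered 46.5% of pairs changed by a log2 of 4. Few reads before selection limit same-chain pairs and BW8_A with BW8_B.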
